A study of Mus musculus with 54 samples.

Results

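The cytosolic ribosomal protein genes were taken as every gene of the deposited count table with a symbol that starts with Rpl or Rps followed by a digit, plus Rplp0, Rplp1, Rplp2 and Rpsa. Symbols of the Rps6k kinases and pseudogene symbols ending in -ps did not count as a match. Of 27297 genes in the table, 84 matched. The 80 with at least 100 unique molecular identifiers (UMIs, sequence tags that let each captured mRNA be counted once) over all wells are the members described here. They hold 29 proteins of the small subunit, 46 of the large subunit and 5 others. The 5 others are the paralogs Rps27l, Rpl7l1, Rpl22l1 and Rpl36al, and Rps19bp1, a binding partner of Rps19 that is not itself a ribosomal protein. Just outside the minimum lay Rps27a, a ribosomal protein made as a fusion with ubiquitin, with 66 UMIs, Rpl39l with 64, Rpl3l with 13 and Rpl10l with 4. Just inside it lay Rpl35 with 104 and Rpl5 with 171. For 8 members the table joins several symbols, such as Rps2 with Gm10653, and their UMIs cannot be split. Rps23 was not analysed here. Fau and Gnb2l1 (Rack1) are examples of genes for ribosomal proteins that the symbol rule does not reach.

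A ribosome joins a small subunit, which reads the mRNA, to a large subunit, which forms the peptide bonds, and each subunit is built from rRNA and 1 copy of most of its proteins. The proteins are needed in matched amounts, and many of their mRNAs share a pyrimidine-rich start, the 5′ terminal oligopyrimidine (TOP) element, through which growth signals acting by way of mTOR set their translation. In blood formation the set is known from Diamond-Blackfan anemia, a human failure of red cell production caused by loss of 1 copy of genes such as RPS19, RPL5 and RPL11.

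The cells were bone marrow progenitors of C57BL/6 mice, enriched for cKit and sorted 1 per well, and their mRNA was read at the 3′ end by MARS-seq, a plate-based single-cell method. The groups follow the authors' table of wells. CMP CD41 (2 pools), CMP Flt3+ Csf1r+ (6 pools) and CMP Irf8-GFP+ MHCII+ (6 pools) are gates within the CD34+ FcgR(low) common myeloid progenitors, and Unsorted myeloid (16 pools) is the whole Lin- cKit+ Sca1- compartment of wild-type mice. The Irf8 gate used mice that carry an Irf8-GFP reporter, and the other gates wild-type mice. Cebpa KO (12 pools) came from Cebpa(flox/flox) mice with Mx1-Cre, and Cebpa control (6 pools) from Cebpa(flox/flox) mice without it. Mx1-Cre is switched on in blood cells and other interferon-responsive tissues by poly(I:C). Cebpe KO (4 pools) were Cebpe-/- and Cebpe control (2 pools) Cebpe+/+ mice. Per the labels, most mice were 6 to 8 weeks old, and 12 samples came from mice of 14 weeks at another facility. In the groups of the table, those are 2 CMP Flt3+ Csf1r+, 2 Cebpa KO, 2 Cebpa control and all 6 Cebpe pools, so age varied within the Cebpa groups. The labels give poly(I:C) for 6 samples, which the table puts in CMP Flt3+ Csf1r+, Cebpe KO and Cebpe control (2 pools each) and in neither Cebpa group. Which pools came from injected mice therefore cannot be told. A pool is 192 wells amplified together, and 2 pools, of even and of odd columns, make up a plate. Each of the 8 groups has 1 mouse identifier, so each p-value below reflects only how pools vary, and part of that variation may be technical.

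The 54 pools on 27 plates and in 6 sequencing batches held 140748 to 854479 UMIs each, 27845961 in all. Of 10260 wells with a cell, 8399 (81.9%) had at least 500 UMIs and were kept, with a median of 2646 UMIs a cell. GEO's sample labels name another group than the table of wells for 18 of the 54 pools, and results were recomputed without those pools. In the table's groups, the targeted gene Cebpa had 0 to 2 UMIs in each Cebpa KO pool and 35 to 64 in each Cebpa control pool. Cebpe had 0 UMIs in each of the 4 Cebpe KO pools, and 21 and 40 in the Cebpe control pools. GEO's labels put all 6 of these pools in other groups. Cells were also put into classes by marker genes, with the members left out of the clustering. Megakaryocyte-like cells made up 80.7% of the CMP CD41 gate, stem- or multipotent-like cells 74.3% of CMP Flt3+ Csf1r+ and 58.9% of CMP Irf8-GFP+ MHCII+, and dendritic-like cells 37.2% of the last. Since pools mix cell classes, fewer cells of a class and less RNA per cell cannot be told apart in values summed over a pool. Some values within classes are given further on.

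The start of 60 members could be read from RefSeq promoters (GRCm38.p6). A C at the annotated start followed by at least 4 bases that are each C or T, the form of a TOP element, stood on the gene's strand in 13 of the 60 (21.7%), against 3.01% of 27025 genes. With the run allowed to begin up to 5 bases to either side of the annotated start, the shares were 46.7% and 21.2%. The windows below run from 20 bases before to 10 bases after the start, 5′ to 3′, and capitals mark the longest pyrimidine run near it. They show 5 members with the element and 2 without it at the annotated start. Members of both kinds differed between plates of unsorted cells in batch SB19, as described further on. The fitted range was 3.16 on the log2 scale for Rpl23 and 4.26 for Rpl36a, and 1.72 for Rpl35a, which is shown with the element. Rps21 and Rpl35a also have annotated starts without the element, which are not shown.
Rplp2, chr7:141447631-141447660, + strand: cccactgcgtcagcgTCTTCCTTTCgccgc
Rps18, chr17:33955656-33955685, - strand: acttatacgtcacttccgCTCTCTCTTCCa
Rps21, chr2:180257359-180257388, + strand: gcacttaccgaggacccgCCCTCCTgccca
Rps27, chr3:90213639-90213668, - strand: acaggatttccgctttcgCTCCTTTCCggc
Rpl35a, chr16:33056462-33056491, + strand: gcgcggcggggcttgCCTTCCTCTTTCCgc
Rpl23, chr11:97782430-97782459, - strand: gctggacgaggtccggTCacgtggctgagt
Rpl36a, chrX:134585634-134585663, + strand: aggaagtgcacccaggcaccgCCTataaac
Windows without the run say only that these letters are not at the annotated start.

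Together the members held 3031598 UMIs, 10.9% of all UMIs. Each mRNA is counted at its 3′ end, so levels are given as CPM, UMIs scaled to the same total in every pool, and are not divided by length. The 10 members with the most UMIs held 50.2% of the members' UMIs. Over the 54 pools Rplp1, of the acidic stalk that recruits elongation factors, averaged 6644 CPM, between 517 and 14156. Rps3, a small-subunit protein at the mRNA entry, averaged 6513 CPM, and Rpl4, which lines the exit tunnel, 6221 CPM. Rpl8, Rps14, Rplp0, Rpl14, Rps9 and Rps2 averaged between 4518 CPM (Rps2) and 5554 CPM (Rpl8). At the other end Rpl35 averaged 4.17 CPM, Rpl5 5.83 CPM, Rps27 7.81 CPM, Rpl22l1 8.20 CPM and Rpl24 9.14 CPM. Of the 80 members, 17 had fewer than 1000 UMIs over all wells.

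**Figure D1:**
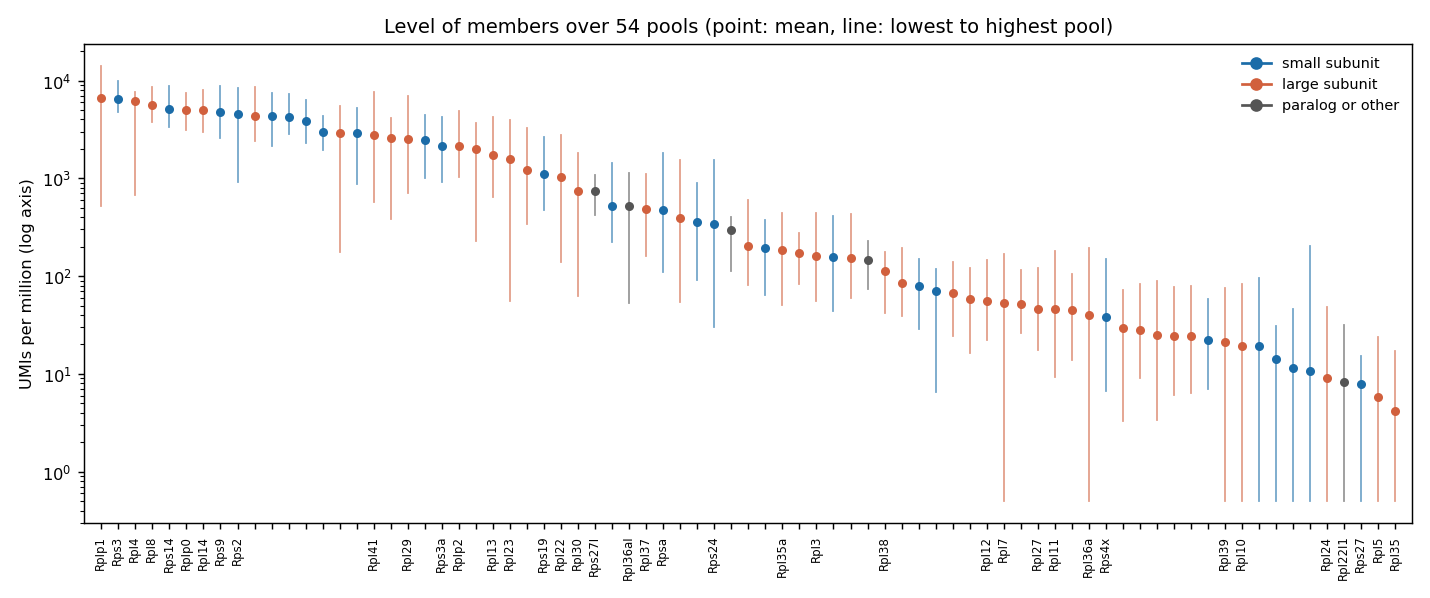
Level of members in CPM (log axis), ordered by mean. Points are means over the 54 pools, lines run from the lowest to the highest pool (pools with no UMI are drawn at 0.5), and colours mark the subunit. Names are given for members described in the text, from Rplp1 at 6644 CPM to Rpl35 at 4.17 CPM.

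Many members share sequence with other genes. Of 79 members with a transcript in the GENCODE vM21 annotation, 39 shared over 50% of the 50-base windows of their last 500 bases with transcripts of other genes, and 17 shared none. The median shared percentage was 24.8% in the 10 highest members and 71.8% in the 10 lowest. Across the 79 members the rank correlation of level with shared percentage was -0.247, and that of level with the GC content of the last 300 bases was 0.25, both weak. No label or file states how reads that match several genes were assigned, so the low levels of Rpl5, Rpl24 or Rps27 are levels as counted.

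The summed share of the members differed between groups by several percentage points, and between pools of a group by nearly as much. It was 13.9% ± 0.105 of UMIs in CMP CD41 (SD, n = 2 pools), 12.7% ± 1.27 in CMP Flt3+ Csf1r+ (n = 6) and 10.2% ± 0.787 in CMP Irf8-GFP+ MHCII+ (n = 6), against 9.43% ± 1.21 in Unsorted myeloid (n = 16). The CMP CD41 pools, at 13.8% and 14.0%, lay above every unsorted pool, of which the highest was 12.6%. Cebpa KO averaged 13.6% ± 1.22 (n = 12) and Cebpa control 13.1% ± 1.73 (n = 6), and their pools overlapped. Cebpe KO averaged 9.33% ± 0.989 (n = 4), with pools from 8.32% to 10.3%, and Cebpe control had 9.87% and 10.9%. Within a group the share differed between batches, which also differ in plates and, for part of the Cebpa pools, in labelled age. Unsorted pools of batch SB19 averaged 8.92% ± 0.711 (n = 12) and those of SB17 10.9% ± 1.18 (n = 4). Cebpa KO pools averaged 12.6% in SB23 and 14.1% in SB29, and Cebpa control pools 11.7% in SB23 and 13.8% in SB29. CMP CD41 and the SB17 unsorted pools share their batch, while the other gates share none with the unsorted cells, so for them gate and batch cannot be told apart. No test is given for the summed share. The ratio of small-subunit to large-subunit UMIs was 1.17 ± 0.0657 in CMP Flt3+ Csf1r+ (n = 6), 1.01 ± 0.0403 in CMP Irf8-GFP+ MHCII+ (n = 6) and 0.932 ± 0.0961 in Unsorted myeloid (n = 16). It was 0.888 ± 0.0164 in Cebpa KO (n = 12) and 1.04 ± 0.145 in Cebpa control (n = 6). Without plate 27, described further on, Cebpa control had a share of 12.1% ± 0.651 and a subunit ratio of 0.970 ± 0.0938 (n = 4), which overlaps the Cebpa KO pools.

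**Figure D2:**
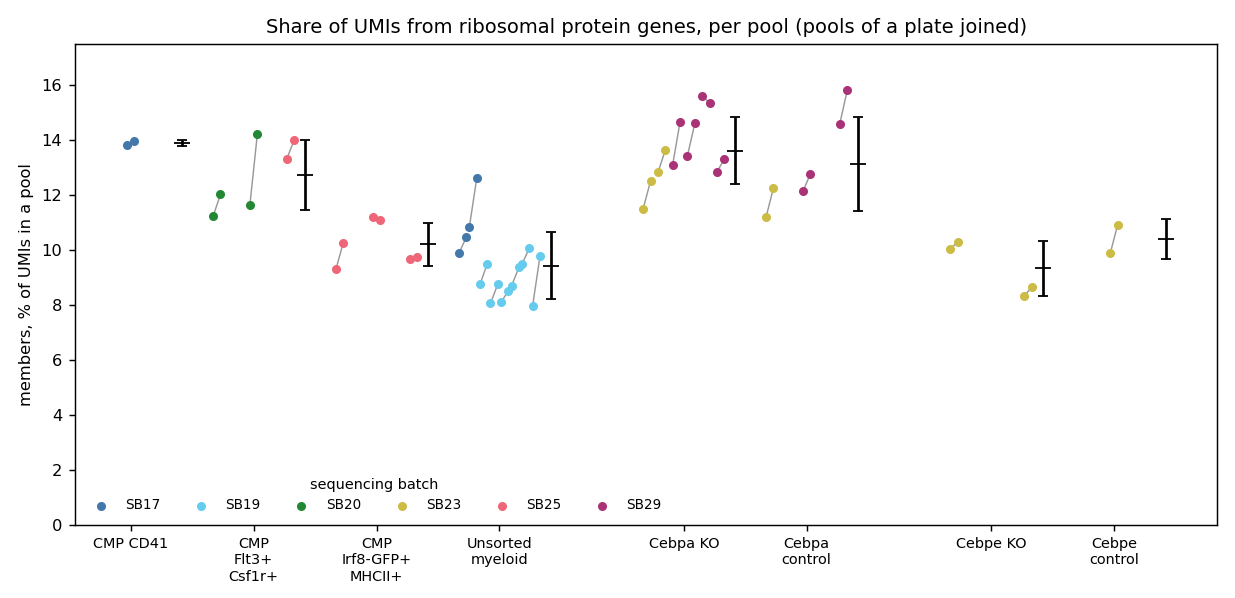
Share of all UMIs that come from the 80 members, in % (y axis), per pool and group. Points are pools coloured by sequencing batch, lines join the 2 pools of a plate, and bars give the mean and SD over pools. Both CMP CD41 pools lie above all 16 unsorted pools, and the right-hand pool of a pair is the higher one on 25 of 27 plates.

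The share also differed by position on the plate. The pool of even columns was above the pool of odd columns on 25 of 27 plates, by a median of 0.708 percentage points (range -0.230 to 2.55), and it had fewer UMIs on 16 of the 27. In a fit with plate as a block, 20 of 70 members tested were higher in even columns and 0 lower, while 1.18% of all genes were called higher and 0.778% lower, 1.96% in all (edgeR, adjusted p under 0.05). The median log2 ratio was 0.11 for members and 0.00 for all genes tested. Rpl13 was higher by 0.30 ± 0.05 on the log2 scale (SE, adjusted p = 2.5e-05), Rps19 by 0.25 ± 0.05 (adjusted p = 0.000688), Rpl41 by 0.22 ± 0.04 (adjusted p = 2.5e-05) and Rplp2 by 0.19 ± 0.03 (adjusted p = 0.00024). Every plate holds 1 pool of each position, so each group has equal numbers of both.

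Single members moved far more between plates than the sum did. Rpl22, which binds RNA outside the ribosome and in mice is needed for T cell development, had mean levels of 142, 1260, 178, 1058, 192 and 1520 CPM on plates 4 to 9, which all hold unsorted cells of 1 mouse identifier in batch SB19. It was low on plates 4, 6 and 8 and high on plates 5, 7 and 9, and no pair of pools from 1 plate differed by more than 0.28 on the log2 scale. On plate 4, 137 of 359 kept cells (38.2%) held a Rpl22 UMI, and on plate 5, 297 of 333 (89.2%), so the difference was spread over the cells. Rpl23, a large-subunit protein at the subunit interface, had 248, 1670, 253, 1599, 494 and 2190 CPM on the same plates. In an F-test over these 6 plates, 37 of 72 members tested differed, against 21.4% of all genes (edgeR, adjusted p under 0.05). The typical member did not range more widely than the typical gene: the median fitted range was 0.63 on the log2 scale for members and 0.67 for all genes tested. The fitted range from the lowest to the highest plate was 4.26 on the log2 scale for Rpl36a (adjusted p = 2.03e-14), 4.13 for Rpl7 (adjusted p = 4.12e-14), 3.42 for Rpl22 (adjusted p = 6e-28) and 3.16 for Rpl23 (adjusted p = 3.59e-25). The plate means of 24 of 79 members ranged over more than 2-fold, or of 13 when 10 CPM is added to each mean so that members at a few CPM weigh less. For 13 members every odd-numbered plate lay above every even-numbered one, 10 of them called. Neither this count nor that of plate means over 2-fold was made for all genes. Several abundant members moved less: the fitted range was 0.44 for Rplp0 (adjusted p = 0.0281), 0.38 for Rps14 (adjusted p = 0.0188) and 0.50 for Rps19 (adjusted p = 0.00455). Over all 27 plates Rpl22 ran from 142 CPM on plate 4 to 2743 CPM on plate 12, and Rps24, a small-subunit protein and Diamond-Blackfan anemia gene, from 44.8 CPM on plate 26 to 1498 CPM on plate 16.

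**Figure D3:**
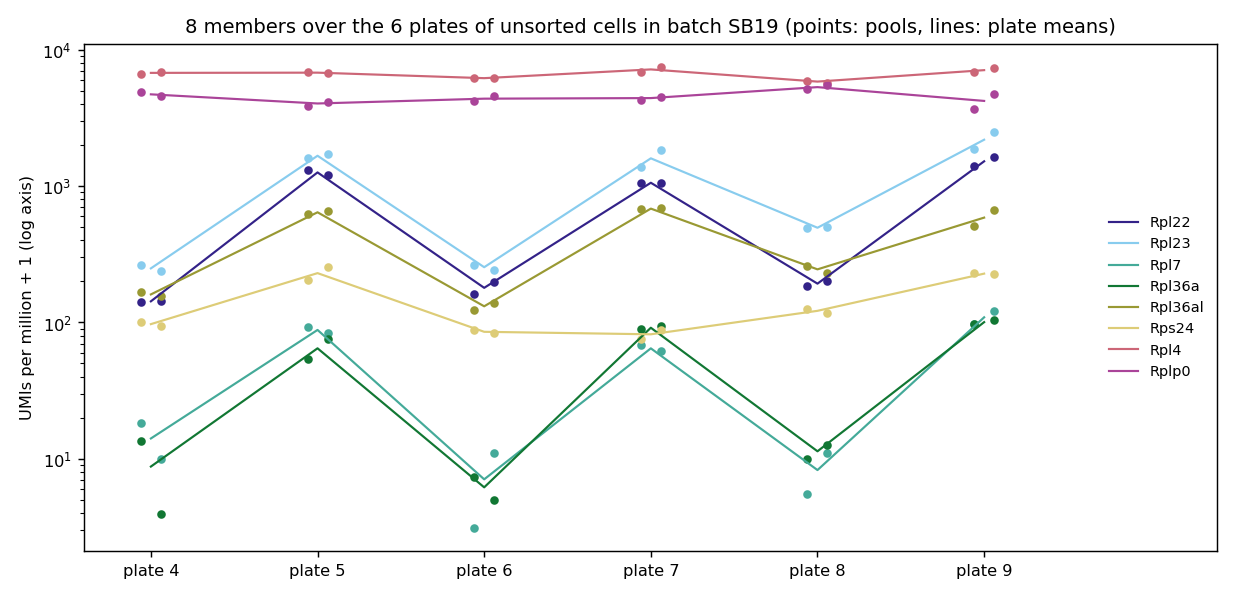
Level of 8 members in CPM plus 1 (log axis) over plates 4 to 9, all of unsorted cells in batch SB19. Points are the 2 pools of a plate and lines join plate means. Rpl22, Rpl23, Rpl7, Rpl36a and Rpl36al are low on plates 4, 6 and 8 and high on plates 5, 7 and 9, while the fitted ranges of Rpl4 and Rplp0 are 0.28 and 0.44 on the log2 scale.

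Some members were lost from a single pool or from most wells of a plate. Of 1119 pairs of pools in which a member reached at least 200 CPM, 8 pairs, from 6 members, differed by 3-fold or more within the plate. The same count was not made over all genes. Rplp1 had 14156 CPM in the even-column pool of plate 27 (Cebpa control) and 517 CPM in its odd-column pool. Its levels in the even and odd pools were 10021 and 1282 CPM on plate 3 (Unsorted myeloid) and 8958 and 2039 CPM on plate 14 (Cebpa control). Rps2, near the mRNA entry, had 4931 and 919 CPM in the even and odd pools of plate 4 (Unsorted myeloid). In the odd pool of plate 3, 150 of 168 cells still held a Rplp1 UMI, so the level was low across cells. Plate 27 stood apart in other members too. Rpl4 had 1304 and 683 CPM in its pools, against 6353 CPM or more in the other 4 Cebpa control pools, and Rpl29 had 6869 and 7019 CPM against at most 3452 CPM. Rpl32 was at 0 in 176 of the 232 kept cells of plate 27, and 15 cells with at least 3 UMIs held 214 of its 259 UMIs. On plate 26, of the same group and batch, Rpl32 was at 0 in 1 of 326 cells. The 15 wells lay in plate rows A, K, L, M and O. Rpl32 and Rps2 were chosen for mention after their values were seen.

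In CMP CD41, a gate rich in platelet-lineage cells, most members called were higher. Of 76 members tested against Unsorted myeloid, 36 rose and 3 fell, while 18% of all genes were called higher and 22.5% lower, 40.5% in all (edgeR quasi-likelihood test, adjusted p under 0.05). The median log2 ratio was 0.54 for members and -0.15 for all genes tested, and that shift of all genes is the base these ratios stand on. By subunit, 16 of 27 small-subunit members rose and 0 fell, and 19 of 44 large-subunit members rose and 2 fell. Rpl12, of the stalk base, had 147 and 127 CPM in the CMP CD41 pools, against 24.2 to 74.5 CPM (median 40.0) in the 16 unsorted pools. The groups did not overlap, as was so for 37.5% of all genes tested, and the log2 ratio was 1.72 ± 0.30 (SE, adjusted p = 2.24e-05). Rpsa, also known as the laminin receptor, had 523 and 639 CPM in CMP CD41, against 123 to 296 CPM (median 200.2) in unsorted pools, a log2 ratio of 1.59 ± 0.31 (adjusted p = 9.19e-05). Rps19, the most often mutated gene in Diamond-Blackfan anemia, had 2232 and 2265 CPM in CMP CD41, against 636 to 1260 CPM (median 911) in unsorted pools, a log2 ratio of 1.37 ± 0.24 (adjusted p = 1.94e-05). Both genes stood above every unsorted pool. Rpl27 rose by 1.61 ± 0.37 (adjusted p = 0.000688) and Rpl37 by 1.41 ± 0.23 (adjusted p = 8.52e-06). The 3 that fell were Rpl38, Rpl36al and Rpl36a. Rpl38, which in mice selects Hox mRNAs for translation, had 77.3 and 42.2 CPM in CMP CD41, against 89.0 to 166 CPM in unsorted pools. Against the unsorted pools of the same batch alone, 24 members were called higher and 3 lower, and the shares of all genes above do not belong to that fit. There the log2 ratio of Rpl27 was 0.93 (adjusted p = 0.0367), and Rpl38 was no longer called, at -0.62 (adjusted p = 0.0703). With UMIs summed per plate, 29 rose and 0 fell. With only 1 plate, leaving out a CMP CD41 pool left 20 higher and 1 lower without pool 1, and 21 higher and 0 lower without pool 2.

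**Figure D4:**
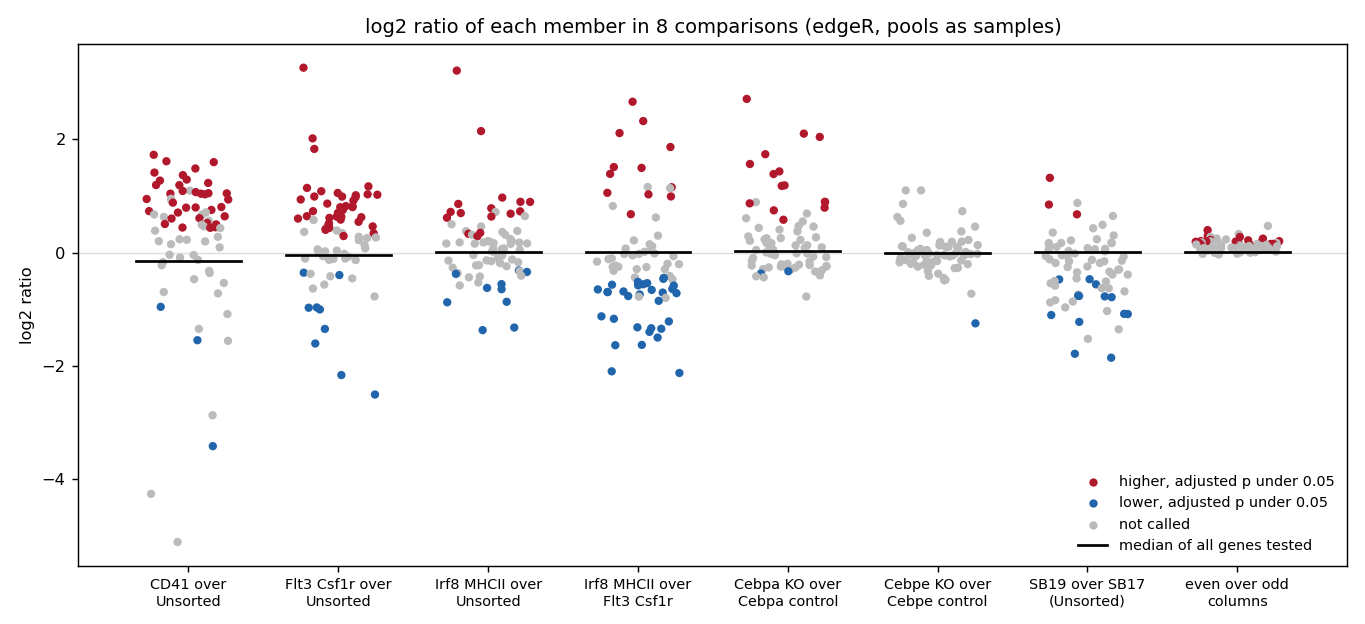
log2 ratio of every member tested (points) in 8 comparisons of pools, with members past an adjusted p of 0.05 in red (higher) or blue (lower) and others grey. Black lines give the median of all genes tested, -0.15 for CMP CD41 and within 0.04 of 0 in the others. The median of the members is 0.54 for CMP CD41, 0.39 for CMP Flt3+ Csf1r+ and 0.11 for even against odd plate columns.

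In CMP Flt3+ Csf1r+, a gate of early cells with lymphoid and monocyte priming, 39 of 76 members tested rose and 9 fell against Unsorted myeloid, while 25.8% of all genes were called higher and 27.5% lower, 53.3% in all. The unsorted pools are the same as above, so the comparisons of the 3 gates share their controls. The median log2 ratio was 0.39 for members and -0.04 for all genes tested. In the small subunit 19 of 27 members rose and 1 fell, and in the large subunit 19 of 44 rose and 6 fell. Rps3a, a small-subunit protein, had 2161 to 3254 CPM (median 2760) in the gate and 910 to 2233 CPM (median 1257) in unsorted pools, a log2 ratio of 1.14 ± 0.14 (adjusted p = 2.9e-08). Rplp2, the stalk partner of Rplp1, whose start window with a TOP run is shown above, had 2524 to 4830 CPM (median 3581) in the gate and 1167 to 2444 CPM (median 1918) in unsorted pools. The pools did not overlap for Rplp2, as for 13.4% of all genes tested, and its log2 ratio was 1.02 ± 0.13 (adjusted p = 1.87e-08). Rps19 rose by 1.03 ± 0.16 (adjusted p = 1.89e-06) and Rpl3, at the peptidyl transferase centre, by 0.80 ± 0.13 (adjusted p = 2.76e-06). Rpl22l1, the paralog that can stand in for Rpl22, rose by 2.01 ± 0.42 (adjusted p = 0.000151), at 1.69 to 31.5 CPM in the gate and 0 to 9.29 CPM in unsorted pools. Among members that fell, Rpl36a had a log2 ratio of -2.50 ± 0.62 (adjusted p = 0.000912), Rpl22 -1.60 ± 0.54 (adjusted p = 0.0115) and Rpl23 -1.35 ± 0.45 (adjusted p = 0.0112). These are among the members that differed most between plates of unsorted cells, and the part of the plate in their ratios was not tested. Without the pools that GEO labels otherwise, 21 rose and 7 fell, with the calls of Rpl22, Rpl23 and Rplp0 lost.

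In CMP Irf8-GFP+ MHCII+, a gate with dendritic-like cells, 16 of 76 members tested rose and 10 fell against Unsorted myeloid, below the 56.1% of all genes called, of which 28.3% were higher and 27.8% lower. Rpl39, a short protein of the exit tunnel, had 14.4 to 50.2 CPM (median 21.5) in the gate and 0 to 10.6 CPM (median 1.78) in unsorted pools. The pools did not overlap, as was so for 18.2% of all genes tested, and the log2 ratio was 3.21 ± 0.54 (adjusted p = 4.41e-06). Levels of Rpl39 followed the sequencing batch, at 1.75, 2.50 and 3.73 CPM in SB17, SB19 and SB20 and at 27.7, 34.1 and 40.1 CPM in SB29, SB25 and SB23. Rps24 had 1203, 1327, 1265 and 1233 CPM in the pools of plates 19 and 21 but 162 and 139 CPM in those of plate 20, within 1 gate and 1 batch, and 74.6 to 741 CPM (median 109) in unsorted pools. Its log2 ratio was 2.14 ± 0.41 (adjusted p = 3.6e-05). Rpsa rose by 0.78 ± 0.21 (adjusted p = 0.00211). Rpl11, which with Rpl5 carries the 5S rRNA and binds Mdm2, fell by 1.32 on the log2 scale (SE 0.39, adjusted p = 0.00398). It had 15.4 to 36.7 CPM in the gate, against 18.5 to 35.2 CPM in unsorted pools of SB17 and 35.3 to 127 CPM in those of SB19. Unsorted pools of SB19 were thus above those of SB17 by as much, 1.32 ± 0.31 (adjusted p = 0.0354). Rpl38 fell by 0.62 (SE 0.15, adjusted p = 0.000443). With UMIs summed per plate, 5 members rose and 8 fell.

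Set directly against CMP Flt3+ Csf1r+, CMP Irf8-GFP+ MHCII+ had 12 of 76 members higher and 31 lower, while 19.7% of all genes were called higher and 17.7% lower, 37.4% in all. The median log2 ratio was -0.29 for members and 0.01 for all genes tested. Rplp2 had 1203 to 1770 CPM in the Irf8 gate and 2524 to 4830 CPM in the Flt3 gate, with no overlap and a log2 ratio of -1.34 ± 0.16 (adjusted p = 9.39e-08). Pools did not overlap for 10.4% of all genes tested. Rps19 fell by 1.22 (SE 0.21, adjusted p = 3.18e-05) and Rpl13 by 1.40 (SE 0.25, adjusted p = 6.28e-05). Within batch SB25, the only one the gates share, 2 rose and 33 fell, and the shares of all genes above do not belong to that fit. There the Flt3 gate is 2 pools of 1 plate, which GEO labels as the Irf8 gate, so gate and plate cannot be told apart. The higher members included Rps24, Rpl22 and Rpl23, and the calls of Rpl22 and Rpl23 were lost within SB25. With UMIs summed per plate, 2 rose and 24 fell. With groups taken from GEO's labels, which swap several plates between these gates, 0 members were called in either direction, and 88 of all genes were.

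Cebpa is a transcription factor needed to form granulocyte and monocyte progenitors. The groups differed in class make-up: early Gata2-led cells made up 51.8% of Cebpa KO cells and 15.4% of Cebpa control cells. Of 72 members tested, 15 rose and 2 fell in Cebpa KO, while 9.67% of all genes were called higher and 8.95% lower, 18.6% in all (edgeR with batch as a term). The median log2 ratio was 0.11 for members and 0.02 for all genes. The highest ratios were those of Rpl7 (2.71 ± 0.70, adjusted p = 0.00757), Rpl23 (2.10 ± 0.37, adjusted p = 0.00021), Rpl22 (2.04 ± 0.43, adjusted p = 0.00144), Rpl36a (1.73 ± 0.44, adjusted p = 0.00621), Rpl36al (1.56 ± 0.30, adjusted p = 0.000573) and Rpl30 (1.43 ± 0.32, adjusted p = 0.00259). Rpl23 had 1819 to 3967 CPM (median 2659) in Cebpa KO and 56.1 to 1508 CPM (median 346) in Cebpa control, with no overlap. Pools did not overlap for 3.26% of all genes tested. Rpl22 had 284 to 2804 CPM (median 1454) in Cebpa KO and 139 to 494 CPM (median 164) in Cebpa control, where the 2 pools of plate 26 were the highest. Of the 17 members called, 12 (70.6%) also differed between the 6 plates of unsorted cells in SB19, which is 32.4% of the 37 called there. Of all members tested between those plates, 37 of 72 (51.4%) differed. The same overlap was not counted over all genes. The part of the plate in the Cebpa result was not tested. The fit counts the 2 pools of a plate as separate samples. With UMIs summed per plate, 3 members rose and 0 fell, and 401 of 7415 genes were called. Rpl23 and Rpl36al were still called then, and Rpl7, Rpl22, Rpl36a, Rpl30, Rpl3 and Rpl8 were not, at adjusted p between 0.0529 for Rpl22 and 0.181 for Rpl8. In SB23 alone 12 rose and 1 fell, and in SB29 alone 7 rose and 0 fell, with Rpl7, Rpl22 and Rpl36a no longer called. Cebpa control is 1 plate in SB23, so plate and genotype cannot be told apart there. The shares of all genes above do not belong to these or the following fits. The log2 ratio of Rpl22 was 3.90 in SB23 and 1.37 (adjusted p = 0.0737) in SB29, and that of Rpl36a 4.33 in SB23 and 1.12 (adjusted p = 0.143) in SB29. Rpl7 had 31 to 48 UMIs in the 4 Cebpa KO pools of SB23 and 0 UMIs in both Cebpa control pools there, while its log2 ratio in SB29 was 1.96 (adjusted p = 0.15). Without plates 24 and 27, 15 rose and 2 fell, and the log2 ratio was 1.56 for Rpl23, 1.11 for Rpl36al, 0.88 for Rpl30 and -0.22 for Rpl8. Without either pool of control plate 26 the counts were 16 higher and 10 lower, or 17 and 10. DESeq2 called 15 higher and 7 lower.

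Rpl8, of the large subunit, was among the 2 members that fell. It had 5172 to 6329 CPM (median 5752) in Cebpa KO and 6039 to 8565 CPM (median 6869) in Cebpa control, a log2 ratio of -0.37 ± 0.10 (adjusted p = 0.014), and its call was lost in SB29 alone. Rpl3, at 87.7 to 441 CPM (median 242) in Cebpa KO and 129 to 169 CPM (median 139) in Cebpa control, rose by 0.74 ± 0.19 (adjusted p = 0.00707). In SB23 alone its log2 ratio was 0.25 (adjusted p = 0.664), so that call was lost. The stalk proteins and Rps19 were not called: Rplp0 had a median of 5440 CPM in Cebpa KO and 6047 CPM in Cebpa control, Rplp2 2257 and 2100 CPM, and Rps19 1207 and 938 CPM. In erythroid-like cells alone (10 Cebpa KO and 6 Cebpa control pools), 7 of 65 members tested rose and 1 fell, against 3.11% of all genes called higher and 1.61% lower, 4.71% in all. They included Rpl23 (2.05 ± 0.41, adjusted p = 0.00755), Rpl36al (1.66 ± 0.34, adjusted p = 0.00854) and Rpl35a (1.40 ± 0.26, adjusted p = 0.0045). In the pools whose GEO label names the same group, 0 members and 8 genes in all passed there. Without either pool of control plate 27, 8 rose and 0 fell. Without either pool of control plate 14 the count was 3, and without pool 1 or pool 2 of control plate 26 it was 18 or 16.

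Cebpe drives the late steps of granulocyte maturation. Between Cebpe KO and Cebpe control the members were nearly without calls. Of 71 tested, 0 rose and 1 fell, while 13.5% of all genes were called higher and 9.85% lower, 23.4% in all, and 6 members had an unadjusted p under 0.05. DESeq2 also called 1. Leaving out 1 pool gave 1 to 4 calls, the most without the odd-column pool of Cebpe KO plate 15. The member that fell was Rps24, with 604, 573, 592 and 546 CPM in Cebpe KO and 1448 and 1547 CPM in Cebpe control. The groups did not overlap, as was so for 44.1% of all genes tested, and the log2 ratio was -1.25 ± 0.12 (adjusted p = 6.84e-09). Within neutrophil- and monocyte-like cells it was -1.24 ± 0.14 (adjusted p = 2.37e-07), the only one of 64 members called there, against 2.58% of all genes called higher and 1.29% lower, 3.88% in all. Cebpe control is a single plate, and Rps24 differed more than that between plates of 1 gate (plates 19 and 20 above). Plate and genotype cannot be told apart here. For Rplp0 the pools lay at 3147 to 3829 CPM in Cebpe KO and at 3469 and 3938 CPM in Cebpe control, and they overlapped. Neutrophil-like cells made up 55.8% of Cebpe KO cells and 10.0% of Cebpe control cells.

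Rps14, a small-subunit protein whose loss marks a human 5q- syndrome, had 6047 and 6548 CPM in CMP CD41 and 4767 to 7665 CPM (median 6141) in CMP Flt3+ Csf1r+, against 3383 to 5844 CPM (median 4222) in Unsorted myeloid. Its log2 ratio in CMP CD41 was 0.64 ± 0.19 (adjusted p = 0.0063), and against unsorted pools of the same batch 0.30 (adjusted p = 0.186). In the Cebpa comparison it was not called, with a median of 5415 CPM in Cebpa KO and 5567 CPM in Cebpa control. Rps27l had 816 and 837 CPM in CMP CD41 and 509 to 753 CPM (median 659) in Unsorted myeloid. Its call in CMP CD41 (0.45 ± 0.15, adjusted p = 0.0199) was lost against unsorted pools of the same batch (adjusted p = 0.12). It was not called in either knockout, with medians of 940 CPM in Cebpa KO and 921 CPM in Cebpa control, and 725 CPM in Cebpe KO and 818 CPM in Cebpe control. Rps4x, the small-subunit protein encoded on the X chromosome, had 74.7 and 78.8 CPM in CMP CD41 and 13.3 to 46.4 CPM (median 37.2) in Unsorted myeloid, without overlap. Rpl10, which joins the large subunit late in its maturation, stayed at or below 82.5 CPM in every pool and was called in none of the 3 gates or the knockouts. Rpl5 had 0 UMIs in both CMP CD41 pools and in all 6 Cebpa control pools, and at most 15 UMIs in any pool. In CMP Flt3+ Csf1r+ it had 0 or 1 UMI in each pool, against 0 to 10 in unsorted pools, and its log2 ratio was -2.16 ± 0.81 (adjusted p = 0.0237). That call was lost with UMIs summed per plate (adjusted p = 0.0722) and in the pools whose GEO label names the same group. Rps27 stayed at or below 15.2 CPM in all 54 pools.

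Between batches of unsorted cells, SB19 against SB17, 3 of 72 members tested were higher and 13 lower, where 0.422% of all genes were called higher and 0.789% lower, 1.21% in all. Rpl29 had 704 to 1195 CPM in SB19 and 2731 to 3581 CPM in SB17 pools, with a log2 ratio of -1.86 ± 0.13 (adjusted p = 7.88e-09). Rpl37a fell by 1.22 (SE 0.12, adjusted p = 1.1e-06), Rpl41 by 1.10 (SE 0.10, adjusted p = 6.74e-07) and Rps21 by 1.09 (SE 0.13, adjusted p = 4.72e-05). Rps10 was higher in SB19 by 0.85 ± 0.16 (adjusted p = 0.00616). With UMIs summed per plate, 0 members were higher and 4 lower, of 8 genes called in all, and Rps10 was no longer called (adjusted p = 0.267). Without the odd-column pool of plate 3 in SB17, 1 was higher and 9 lower. Over all 6 batches, which also differ in groups, the means of Rps24 ranged from 60.9 CPM in SB29 to 701 CPM in SB25. Those of Rpsa ranged from 187 CPM in SB19 to 1028 CPM in SB29. Rpl37a, Rpl22 and Rps16 were also among the 6 members with the widest batch ranges.

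Among unsorted cells the members' share differed between cell classes. Early Gata2-led cells had 10.9% ± 1.54 of their UMIs on members, stem- or multipotent-like cells 9.73% ± 1.37 and erythroid-like cells 9.66% ± 1.23. Monocyte-like cells had 8.69% ± 1.2 and neutrophil-like cells 8.23% ± 1.10 (SD over 16 pools each). Early Gata2-led cells were above stem- or multipotent-like, monocyte-like and neutrophil-like cells in 16 of 16 pools, and above erythroid-like cells in 15. Dendritic-like cells were lower still, at 6.15% over 31 pooled unsorted cells and 7.37% ± 0.666 in CMP Irf8-GFP+ MHCII+. Within a class the share also differed between groups. Stem- or multipotent-like cells had 11.2% ± 0.930 in CMP Irf8-GFP+ MHCII+, 12.9% ± 1.35 in CMP Flt3+ Csf1r+ and 14.8% ± 1.01 in CMP CD41. Megakaryocyte-like cells had 13.7% in CMP CD41 and 9.37% over 69 unsorted cells. Groups also differ in plates, and the part of the plate was not tested. Depth differed between classes, with a median of 1396 UMIs in early Gata2-led, 5585 in erythroid-like and 2949 in neutrophil-like cells, and its part was not tested. Rplp0 averaged 5253 CPM in early Gata2-led and 3828 CPM in neutrophil-like cells. Rps19 averaged 1151 CPM in early Gata2-led, 879 CPM in erythroid-like and 839 CPM in neutrophil-like cells. Erythroid-like cells thus did not have the highest level of this Diamond-Blackfan anemia gene. Rps27l, the paralog that in mice and humans responds to p53, averaged 701 CPM in erythroid-like and 570 CPM in neutrophil-like cells. These class values are descriptions, since cells were classed on the same libraries.

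**Figure D5:**
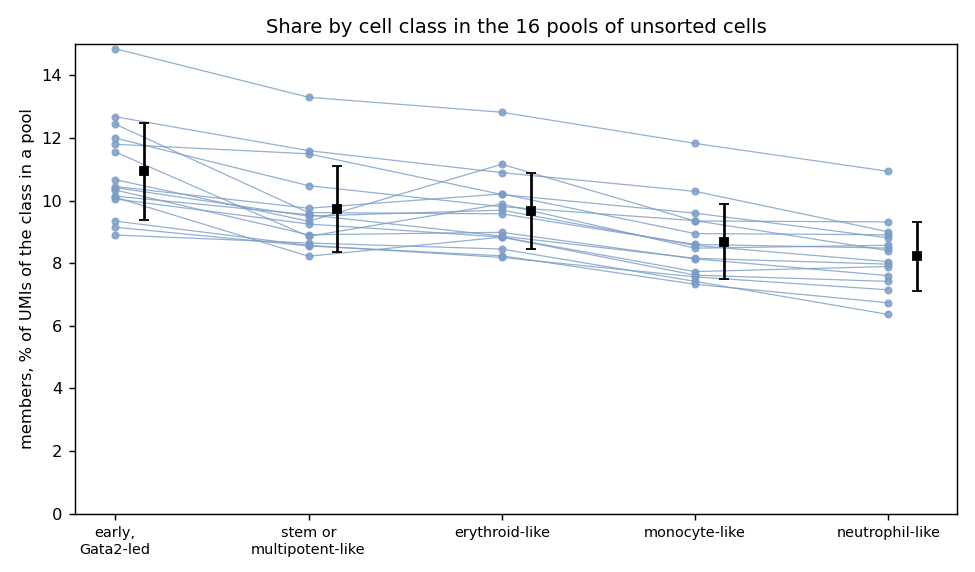
Share of UMIs from the 80 members, in % (y axis), in 5 cell classes of the unsorted cells. Each line is 1 of 16 pools, and squares with bars give the mean and SD over pools. The share runs from 10.9% in early Gata2-led cells to 8.23% in neutrophil-like cells.

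Genes that build ribosomes were mostly lower in the gates. Of 29 tested ribosome biogenesis genes, such as the nucleolar proteins Nop56 and Gnl3, 1 rose and 16 fell in CMP CD41, with a median log2 ratio of -0.92. In CMP Flt3+ Csf1r+ 1 rose and 20 fell, and in CMP Irf8-GFP+ MHCII+ 1 rose and 22 fell, each against the same unsorted pools. Of all genes, 22.5%, 27.5% and 27.8% fell in these gates. In CMP CD41, Nop56, a core protein of box C/D particles, had a log2 ratio of -3.03 (adjusted p = 2.2e-05) and Gnl3 of -2.30 (adjusted p = 6.03e-05). In Cebpe KO 0 of 28 rose and 13 fell, with a median of -0.46, and in Cebpa KO 3 of 27 rose and 0 fell, where 9.85% of all genes fell in Cebpe KO and 9.67% rose in Cebpa KO. Of 14 genes for elongation factors and other TOP mRNAs, 8 rose and 3 fell in CMP Flt3+ Csf1r+, 5 and 2 in CMP CD41, and 2 and 5 in CMP Irf8-GFP+ MHCII+. Of 13 tested, 4 rose and 1 fell in Cebpa KO and 0 rose and 5 fell in Cebpe KO. Over all genes, 53.3% were called in CMP Flt3+ Csf1r+, 40.5% in CMP CD41, 56.1% in CMP Irf8-GFP+ MHCII+, 18.6% in Cebpa KO and 23.4% in Cebpe KO. The 18 human Diamond-Blackfan anemia genes among the members had 7 of 16 tested higher and 0 lower in CMP CD41, 6 and 1 in CMP Flt3+ Csf1r+, 4 and 2 in CMP Irf8-GFP+ MHCII+, 3 and 0 of 14 in Cebpa KO and 0 and 1 of 14 in Cebpe KO. In either direction together, these counts are near or below the same shares of all genes. Outside the symbol rule, Gnb2l1 had medians of 6015, 5592 and 4786 CPM in CMP CD41, CMP Flt3+ Csf1r+ and CMP Irf8-GFP+ MHCII+, and 5895 CPM in Unsorted myeloid.

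Among the 10 genes whose pattern over the 54 pools was most like the summed members, after the mean of each group and batch was taken off, were Tmsb10 (Pearson r = 0.847), Tceb2 (0.776), Hspe1 (0.775), Nhp2 (0.765), Pfdn5 (0.763), Ppp1ca (0.753), H2afz with H2afv (0.734), Serf2 (0.732) and Snrpd2 (0.730). The median r over 6610 other genes was -0.150, and that over 13 TOP mRNAs was 0.139. Pools share their plate and depth, so these values are descriptions.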

How the data were processed

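Gene expression was measured by MARS-seq in 54 pools. The deposited values are counts: the authors counted UMIs per gene and well from 3′ reads, with bcl2fastq 2.15.0.4 and the mouse build mm9 named per the submitters' processing notes. The aligner was not stated in the labels or files. Groups follow the authors' deposited table of wells. The members and gene lists were chosen with earlier results of these data known.

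UMIs were summed per pool over wells with at least 500 UMIs. Pools were compared with edgeR 4.0.16 (limma 3.58.1, R 4.3.3): TMM scaling, filterByExpr, a quasi-likelihood test and Benjamini-Hochberg adjustment over all genes tested, with a threshold of 0.05. The Cebpa comparison had sequencing batch as a term, and that of even against odd columns had the plate as a block. Errors of log2 ratios are standard errors. Members with too few UMIs for the filter have no test, so 64 to 76 of 80 were tested per comparison. Scripts were tested on simulated data.

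Named members were the 6 highest and 6 lowest called ratios of a comparison plus a list of members fixed by role, along with the highest and lowest levels, and others are named in counts or as noted. Some members and other genes enter sums, counts and tests but are not reported here by name. Cells were clustered without the members and classed by markers, and no well identifier occurred in more than 1 pool. Doublets were not called, since cells were sorted 1 per well. The 4-base tags allow 256 values per gene and well, and the highest member count was 115. Intervals cover counting error only. Transcript ends came from GENCODE vM21 and promoters from RefSeq (GRCm38.p6). Alternatives were other scaling factors, filters and well minimums, DESeq2 1.42.0, sums per plate, GEO's labels, and leaving out pools or plates. Shares of all genes belong to the main fits. Counts of members in an alternative fit stand alone unless a count of all genes is given beside them. The comparisons of plate columns and of plates within a batch, the term for columns, the tag correction the fit without plates 24 and 27 and the Cebpa control values without plate 27 were chosen after seeing the data. The 4 groups of unsorted and gated cells share 1 fit and its estimate of spread. Tables used pandas 2.3.3, numpy 2.4.6 and scipy 1.17.1 in Python 3.11.15, and matplotlib 3.10.9.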

Additional observations from a re-analysis of the deposited data

Results flagged for a closer look

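Rpl39 reached 50.2 CPM (26 UMIs) in the even-column pool of plate 20 of CMP Irf8-GFP+ MHCII+, far from the other 5 pools, of which the nearest had 27.1 CPM. The gap was 0.646 of the group's whole range. It was the only value that stood apart among 68 groups of pools checked, and chance marks about 1 group in 20.

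Wells without a cell, which enter no comparison, held 477 UMIs of the members. The 108 such wells held 6279 UMIs in all, so the members' share was 7.60% (95% exact interval 6.95 to 8.28%), against 10.9% over all wells. None of these wells reached 500 UMIs.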

How the results depend on the processing

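No paired analysis was possible because replicate numbers were given in accession order only and pair no pools across groups. Of 111 results for named members, 38 kept their call under every alternative run, and over 2117 values 1875 kept direction and call, 227 lost the call and 15 reversed. The cause of each change was not tested. All 15 reversals came with groups taken from GEO's labels. For CMP Flt3+ Csf1r+ against Unsorted myeloid the log2 ratios were then 0.53 for Rpl5, 0.71 for Rpl22, 0.34 for Rpl23, 0.10 for Rpl9, 0.33 for Rpl36al and -0.0052 for Rplp0, and for CMP Irf8-GFP+ MHCII+ against Unsorted myeloid 0.12 for Rplp2. Between the gates they were -1.20 for Rpl5, -0.67 for Rpl22, -0.068 for Rps24, -0.55 for Rpl23, -0.24 for Rpl30, 0.087 for Rplp0, 0.23 for Rps14 and 0.21 for Rps4x.

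Counts of members called moved as follows. For Cebpa, they were 26 with no filter on low counts, 4 with GEO's groups and 3 with sums per plate. They were 7 in pools whose label names the same group, which are the pools of SB29 alone, so both alternatives are the same fit. For Cebpe, they were 7 without scaling factors, 3 with no filter, 2 with all wells, 20 with GEO's groups and 2 with a term for odd or even columns. CMP Flt3+ Csf1r+ had 28 in pools with the same label and 18 with GEO's groups, and CMP Irf8-GFP+ MHCII+ had 13 with sums per plate. Between the gates there were 24 in pools with the same label, 0 with GEO's groups and 26 with sums per plate. Between batches there were 4 with sums per plate. Within erythroid-like cells there were 20 with no filter and 0 in pools with the same label, and within neutrophil- and monocyte-like cells 3 without scaling factors.

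Leaving out 1 pool gave 1 to 4 calls for Cebpe, 39 to 46 between the gates, 3 to 18 within erythroid-like cells and 1 within neutrophil- and monocyte-like cells. In the other comparisons, Cebpa KO, Unsorted myeloid and SB19 pools were left out by whole plates and the remaining pools singly. That gave 13 to 27 calls for Cebpa, 21 to 45 for CMP CD41, 43 to 48 for CMP Flt3+ Csf1r+, 24 to 29 for CMP Irf8-GFP+ MHCII+ and 10 to 18 between batches. For the summed shares, 1 plate was left out in Unsorted myeloid and Cebpa KO, and 1 pool in the other groups. The shares ran from 13.8 to 14.0% in CMP CD41, 12.4 to 13.0% in CMP Flt3+ Csf1r+, 10.0 to 10.4% in CMP Irf8-GFP+ MHCII+, 9.10 to 9.59% in Unsorted myeloid, 13.2 to 13.9% in Cebpa KO, 12.6 to 13.5% in Cebpa control, 9.01 to 9.66% in Cebpe KO and 9.87 to 10.9% in Cebpe control.

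From members with a single symbol the shares were 11.8% in CMP CD41, 10.47% in CMP Flt3+ Csf1r+, 8.57% in CMP Irf8-GFP+ MHCII+, 7.89% in Unsorted myeloid, 11.5% in Cebpa KO, 11.0% in Cebpa control, 7.87% in Cebpe KO and 8.75% in Cebpe control. CMP CD41 had 13.8% over wells with at least 1000 UMIs, 14.5% as a median over cells and 14.2% after correction for tag collisions, and Cebpe control 11.1% as a median over cells. GEO's groups gave 11.5% for CMP Irf8-GFP+ MHCII+, 11.9% for Cebpe KO and 8.48% for Cebpe control. Cebpe sums per plate and Cebpe pools with the same label could not be fitted, and pools were not left out of the comparisons of columns and plates. Members below about 10 CPM rest on a few UMIs per pool, which limits the precision of their ratios.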
